A study of Arabidopsis thaliana with 10 samples.

Results

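The plastid enzymes of fatty acid synthesis were followed here through 10 nuclear genes, chosen by locus code from the 32824 genes of the table: BCCP1 (AT5G16390), BCCP2 (AT5G15530), CAC2 (AT5G35360), CAC3 (AT2G38040), MCAT (AT2G30200), ACP4 (AT4G25050), KASIII (AT1G62640), KASI (AT5G46290), MOD1 (AT2G05990) and FAB2 (AT2G43710). All 10 were found, and all 10 had a mean of at least 1 FPKM, the minimum for testing; FPKM is a fragment count scaled both to the length of the transcript and to the depth of the library. RNA-seq was made from shoots of Arabidopsis thaliana grown for 10 days on diluted Murashige and Skoog agar with sucrose. The OE group held 5 samples of plants in which the viral 35S promoter, active in most tissues, drives BnaC02.TPS8. This is an oilseed rape gene of the trehalose-6-phosphate synthase family. The WT group held 5 samples of the accession Col-0. Each sample gave 1 library, and there was no other treatment in either group. The titles name line 11 and the series text names O2, so which transgenic line was sampled is unclear, and all 5 OE samples carry the same line name. Nothing in the labels tells if a group's samples came from separate plates or sowings, so the p-values rest on a spread among samples that may be technical.

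Plants make most of their fatty acids in plastids. Acetyl-CoA carboxylase first turns acetyl-CoA into malonyl-CoA, in an enzyme built from separate biotin carboxylase, biotin carrier and carboxyltransferase subunits. The malonyl group is passed to acyl carrier protein, on which the condensing enzymes, reductases and a dehydratase lengthen the chain by turns, until a desaturase and thioesterases finish and release the product. In green shoots these fatty acids supply the thylakoid and other membranes. Trehalose-6-phosphate, the product of active trehalose-6-phosphate synthases, is known as a signal of sucrose supply. In Arabidopsis it has been tied to fatty acid synthesis through WRINKLED1, a transcription factor that activates genes of this pathway. Trehalose-6-phosphate was not measured here, and whether TPS8 makes it was not tested. According to the series text, OE and WT were compared to find pathways under the control of TPS8 at sufficient nitrogen.

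Estimated depth was 1.86e+07 to 2.34e+07 fragments per library, and the FPKM of all genes summed to 918877 to 996313 per library. Genes of the plastid genome took 0.442% to 2.90% of the FPKM in OE and 0.552% to 4.28% in WT, and the 3 libraries with the highest shares were OE replicate 4 and WT replicates 2 and 4. All 6 fixed markers of green tissue were abundant, summing to 75260 to 85061 FPKM in OE and 76258 to 87364 FPKM in WT. Of 6 root markers, SHR (also active in shoots) alone reached a mean of 1 FPKM, and none of 6 markers of seeds and embryos did, CRC and CRB being listed at 0 in all libraries. The 7 markers of dividing cells summed to 116 to 141 FPKM in OE and to 90.2 to 133 FPKM in WT. All 7 had a log2 difference above 0 (0.06 to 0.38), where 50.8% of all tested genes did. All 6 green tissue markers lay below 0 (-0.15 to -0.0015), but none was called. RBCS1A, LHCB1.3 and RBCS3B among them were nearly unchanged, with log2 differences of -0.0015, -0.0026 and -0.0043. PCNA1, the sliding clamp of DNA replication, passed with a log2 difference of 0.38 (limma adjusted p = 0.0497), a call lost in most cases when 1 library was left out. Their part in the results below was not tested. In bulk shoots, more cells of a kind and more RNA per cell cannot be told apart. Every row carries an Arabidopsis locus code, so expression of the rapeseed transgene was not analysed here.

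Among the 10 genes, KASIII rose in OE, by 23.2% in the mean. It starts the chain by joining acetyl-CoA to malonyl-ACP. MCAT and ACP4 help to supply malonyl-ACP to this and the later condensations. They averaged 13.5% and 15.4% more in OE, without overlap between the libraries of OE and WT, but missed the threshold. For the 7 other genes the 95% interval of the log2 difference included 0. In the fit across all 17713 tested genes (limma, two-sided, Benjamini-Hochberg, threshold 0.05), 1 of the 10 genes was thus called higher in OE and 0 lower, where 2.37% of all tested genes were called higher, 0.525% lower and 2.89% in either direction. Before adjustment, 3 of the 10 had p under 0.05, all higher in OE, against 9.89% of all tested genes higher, 5.26% lower and 15.1% in either direction. The groups did not overlap in 3 of the 10, all higher in OE, where 4.41% of all tested genes had OE above WT throughout and 5.83% did not overlap in either direction. The median log2 difference was 0.11 over the 10 genes and 0.00 over all tested genes, and 8 of the 10 lay above 0, where 50.8% of all tested genes did. With 10 genes chosen with earlier results known, these counts describe the list and were not tested as a set.

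**Figure D1:**
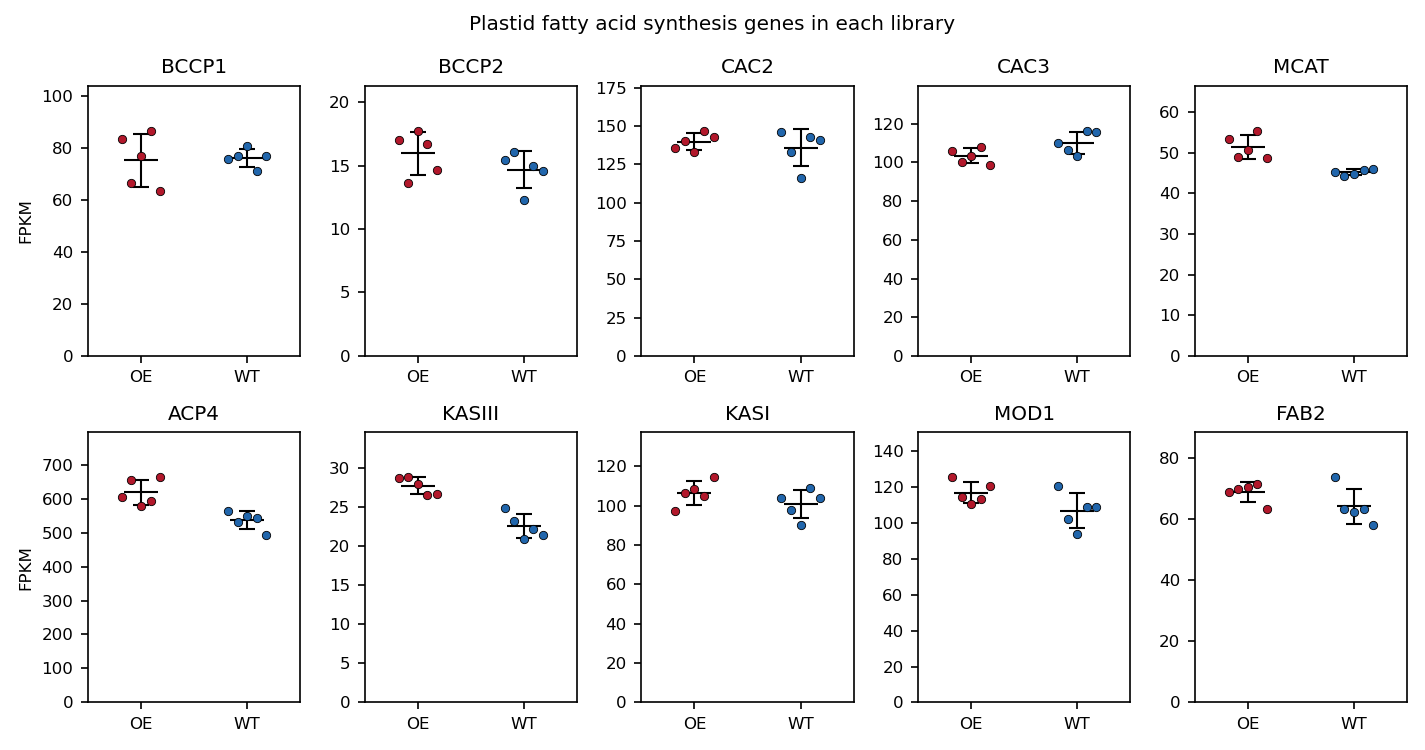
FPKM of the 10 genes (vertical axes, each from 0) in the 5 OE libraries and the 5 WT libraries; points are libraries, and the bars show the mean and SD. The OE points of KASIII (26.6 to 28.8 FPKM), MCAT (48.7 to 55.3 FPKM) and ACP4 (579 to 662 FPKM) all lie above the WT points, and the other 7 genes overlap.

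KASIII, the 3-ketoacyl-ACP synthase that makes the first condensation, stood at 28.7, 28.8, 28.0, 26.6 and 26.6 FPKM in OE replicates 1 to 5. In WT replicates 1 to 5 it stood at 24.8, 23.2, 21.0, 22.2 and 21.4 FPKM. Every OE library was above every WT library, and WT replicate 1 came closest to the OE range. The means were 27.7 ± 1.08 FPKM in OE and 22.5 ± 1.54 FPKM in WT (SD, n = 5), a log2 difference of 0.29 (SE 0.06, 95% interval 0.16 to 0.43; limma adjusted p = 0.0299). The limma adjusted p was 0.0570 to 0.0920 when any 1 of WT replicates 2 to 5 or OE replicates 1 to 4 was left out, with a log2 difference of 0.27 to 0.31, and 0.0184 and 0.0476 without WT replicate 1 or OE replicate 5. It was 0.228 without the 3 libraries richest in plastid RNA, where the log2 difference was 0.31.

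KASI, which carries out most of the later condensations, had a log2 difference of 0.07 (95% interval -0.07 to 0.21; limma adjusted p = 0.646). It ranged from 97.2 to 114 FPKM in OE and from 90.3 to 109 FPKM in WT, so that the groups overlapped broadly. KASII (AT1G74960), which makes the last elongation of the chain in plastids, stood at 86.7 ± 4.38 FPKM in OE and 84.7 ± 3.71 FPKM in WT (log2 0.03; limma adjusted p = 0.836). Of the 3 condensing enzymes, then, the starting one passed; whether its difference departed from those of the other two was not tested.

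MCAT, malonyl-CoA:ACP transacylase, which loads the malonyl group onto the carrier, stood at 53.3, 48.8, 50.7, 55.3 and 48.7 FPKM in OE replicates 1 to 5. In WT replicates 1 to 5 it stood at 45.3, 44.4, 44.7, 45.8 and 46.0 FPKM. The WT libraries lay within a coefficient of variation of 1.60%, the smallest of any of the 10 genes in either group, and the OE libraries spread over 5.65%. The log2 difference was 0.18 (SE 0.05, 95% interval 0.06 to 0.29), with an unadjusted limma p of 0.0063 and an adjusted p of 0.111.

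ACP4, the acyl carrier protein that predominates in leaves, stood at 605, 654, 579, 592 and 662 FPKM in OE replicates 1 to 5, against 564, 530, 549, 542 and 494 FPKM in WT replicates 1 to 5. The lowest OE library was just above the highest WT library. Means were 618 ± 37.7 FPKM in OE and 536 ± 26.5 FPKM in WT (SD, n = 5), and the log2 difference was 0.21 (SE 0.06, 95% interval 0.08 to 0.33), with an unadjusted limma p of 0.0033 and an adjusted p of 0.0806. The size depended on the scaling: under quantile normalization, which forces all libraries to 1 distribution, the log2 difference was 0.11 (limma adjusted p = 0.402). Without the 3 libraries richest in plastid RNA the limma adjusted p was 0.345 for ACP4 and 0.514 for MCAT. With quantile or median-ratio scaling ACP4 no longer separated the groups.

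The subunits of acetyl-CoA carboxylase did not pass. BCCP1, the main biotin carboxyl carrier protein, stood at 83.3, 66.6, 76.8, 86.6 and 63.3 FPKM in OE replicates 1 to 5 and at 75.8, 76.9, 80.8, 71.1 and 76.9 FPKM in WT replicates 1 to 5. All WT values lay within the OE range, since OE replicates 1 and 4 were above every WT library and OE replicates 2 and 5 below every one. The coefficient of variation was 13.5% in OE and 4.58% in WT, and the log2 difference was -0.03 (95% interval -0.22 to 0.17; limma adjusted p = 0.919). BCCP2, a carrier isoform better known from seeds, ranged from 13.7 to 17.7 FPKM in OE and from 12.3 to 16.1 FPKM in WT (log2 0.11, 95% interval -0.09 to 0.31; limma adjusted p = 0.630).

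CAC2, the biotin carboxylase that charges the carrier, ranged from 133 to 147 FPKM in OE and from 116 to 146 FPKM in WT (log2 0.04, 95% interval -0.10 to 0.19; limma adjusted p = 0.816). CAC3, the alpha subunit of the carboxyltransferase, was the member with the lowest log2 difference (-0.09, 95% interval -0.21 to 0.02; limma adjusted p = 0.459). It stood at 106, 100, 103, 108 and 98.8 FPKM in OE replicates 1 to 5 and at 110, 106, 103, 116 and 116 FPKM in WT replicates 1 to 5. WT replicates 1, 4 and 5 were above every OE library, while WT replicates 2 and 3 lay within the OE range. Under quantile normalization the OE libraries of CAC3 all lay below the WT libraries, with a log2 difference of -0.13 (limma adjusted p = 0.173). The partner of CAC3, the beta subunit accD, is encoded in the plastid genome. It was listed at 0.0335 to 0.195 FPKM in OE and at 0.0422 to 0.177 FPKM in WT, too low to be tested. How fully these libraries captured RNA of the plastid genome was not tested, so these values do not show how strongly accD is expressed.

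MOD1, the enoyl-ACP reductase that ends each round of elongation, stood at 125, 114, 111, 113 and 121 FPKM in OE replicates 1 to 5 and at 120, 102, 93.8, 109 and 109 FPKM in WT replicates 1 to 5. Of the WT libraries, 4 lay below every OE library and replicate 1 lay within the OE range. The log2 difference was 0.13 (95% interval -0.02 to 0.28; limma adjusted p = 0.413). FAB2, the stearoyl-ACP desaturase that puts the first double bond into the chain, ranged from 63.1 to 71.5 FPKM in OE and from 58.2 to 73.6 FPKM in WT. WT replicate 1 exceeded all OE libraries, and the log2 difference was 0.10 (95% interval -0.05 to 0.25; limma adjusted p = 0.527).

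**Figure D2:**
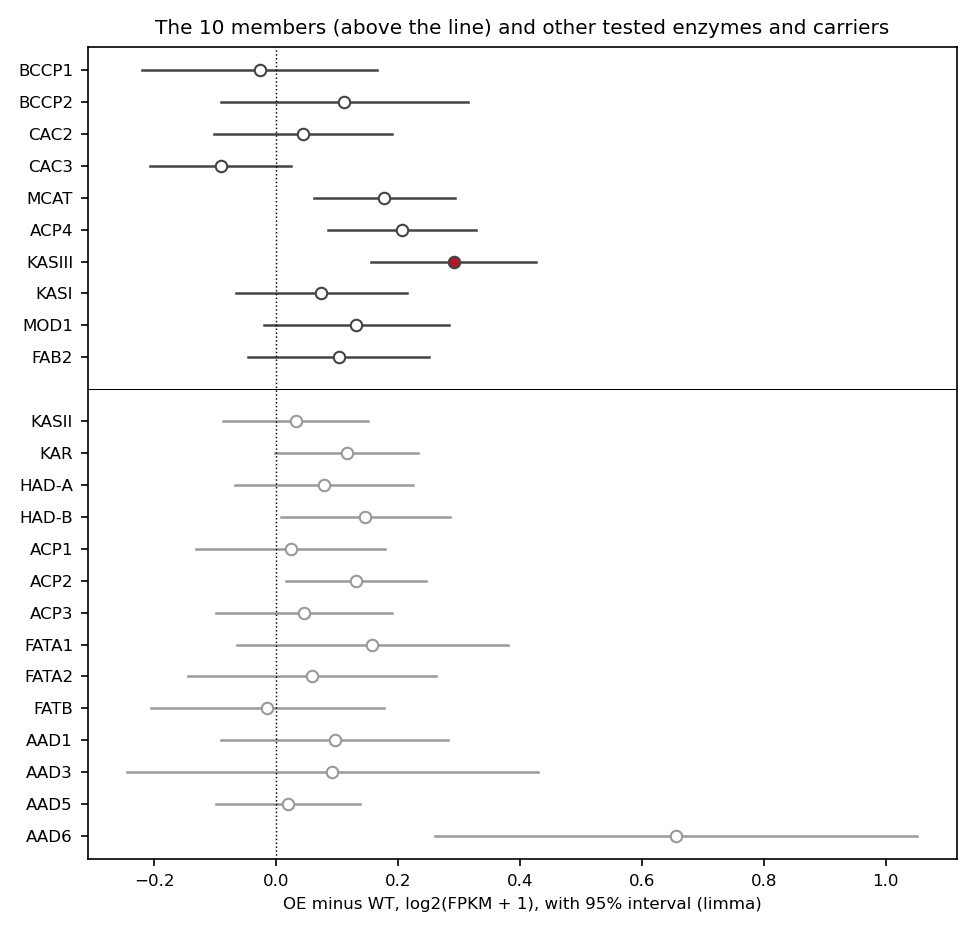
Log2 difference of OE minus WT (points) on the log2(FPKM + 1) scale with its 95% interval from limma (lines), for the 10 genes in pathway order above the line and 14 other tested enzymes and carriers below it; filled points passed the threshold. KASIII (0.29) is the filled point, and the intervals of MCAT, ACP4, HAD-B, ACP2 and AAD6 also lie above 0 although these genes missed the threshold.

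Levels per transcript length differed far more between the genes than between the groups. ACP4 was the most abundant of the 10, with 577 FPKM over all libraries, above 98.9% of the tested genes, and made up 44.8% to 48.9% of the summed FPKM of the 10 in OE and 41.8% to 46.8% in WT. CAC2 followed with 138 FPKM, above MOD1 in 10 of 10 libraries. MOD1 (112 FPKM), CAC3 (107 FPKM) and KASI (104 FPKM) overlapped: MOD1 exceeded CAC3 in 6 of 10 libraries and CAC3 exceeded KASI in 7 of 10. BCCP1 (75.8 FPKM) exceeded FAB2 (66.4 FPKM) in 9 of 10 libraries. MCAT (48.3 FPKM), KASIII (25.1 FPKM) and BCCP2 (15.3 FPKM) followed, and each range lay wholly apart from its neighbours in this order. Within acetyl-CoA carboxylase, both carrier genes together summed to 91.3 ± 11.6 FPKM in OE and 91.0 ± 2.87 FPKM in WT (SD, n = 5).

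Counting error was small beside the spread for most, but not all, of the values. For the least abundant gene, BCCP2, 366 to 566 fragments were estimated per library, for a counting error of at most 5.23%, against a coefficient of variation of 10.8% in OE and 9.93% in WT. For KASIII the estimate was 719 to 1138 fragments, with an error of at most 3.73%, close to the coefficient of variation of 3.87% in OE and below that of 6.82% in WT. For MCAT the spread of 1.60% in WT was smaller than the estimated counting error of up to 2.85%. WT replicate 3 had the lowest WT value for 6 of the 10 genes, and WT replicate 1 the highest for 5. In OE, replicate 4 was highest for 5 of the genes and replicate 5 lowest for 4. Averaged over the 10 genes, log2(FPKM + 1) was 6.34 to 6.41 in OE and 6.18 to 6.35 in WT, so that the highest WT library, replicate 1, lay within the OE range.

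**Figure D3:**
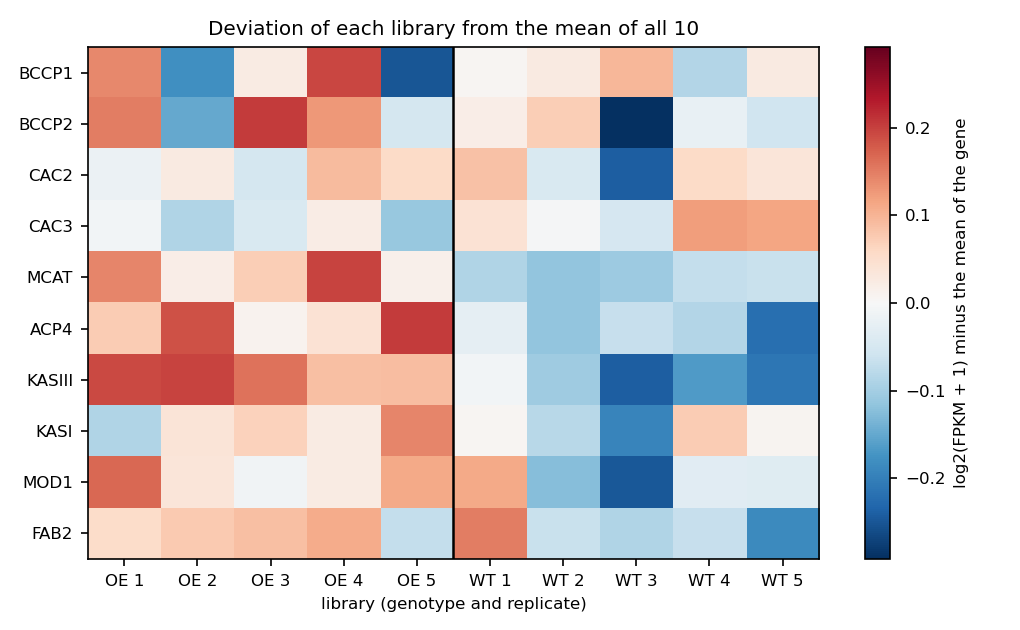
Deviation of each library from the gene's mean over all 10 libraries, in log2(FPKM + 1), for the 10 genes (rows) in the OE libraries (left of the line) and the WT libraries (right); red is above the mean and blue below. MCAT, ACP4 and KASIII are above their mean in all OE libraries and below it in all WT libraries, while BCCP1 varies most among the OE libraries.

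Isoform shares, which do not change when all genes of a library are multiplied by 1 factor, were compared between the groups on the FPKM as deposited. ACP4 made up 66.7 ± 1.42% of the summed FPKM of ACP1 to ACP5 in OE and 64.8 ± 2.16% in WT (SD, n = 5; exact permutation p = 0.143, two-sided). The share of BCCP2 in both BCCP genes was 17.5 ± 1.17% in OE and 16.2 ± 1.77% in WT (exact permutation p = 0.198). FAB2 accounted for 57.4 ± 1.49% of the transcripts of FAB2 and its 6 relatives AAD1 to AAD6 in OE and for 56.8 ± 2.78% in WT (exact permutation p = 0.651). None of the 3 passed the exact permutation test (Benjamini-Hochberg adjusted p = 0.298, 0.298 and 0.651 in the same order), where 5 against 5 libraries can give an exact p of 0.00794 at the least. Fragments of near-identical copies can be split between them, so the values of single isoforms are uncertain. ACP1 to ACP5 together, of which ACP4 made up the shares above, stood at 878 to 970 FPKM in OE and at 794 to 851 FPKM in WT. These ranges did not overlap, as in 4.41% of all tested genes with OE higher, but the sum was not recomputed under the scalings in which ACP4 itself overlapped.

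Of the 18 other genes for enzymes and carriers of the pathway, 14 were tested, none was called in either direction, and 13 of the 14 had a log2 difference above 0, where 50.8% of all tested genes did, with a median of 0.09. An unadjusted limma p under 0.05 was found for 3 of the 14, all higher in OE, against 9.89% of all tested genes higher and 15.1% in either direction. ACP2 stood at 157 ± 5.71 FPKM in OE and 144 ± 7.55 FPKM in WT (log2 0.13; limma adjusted p = 0.255). KAR (AT1G24360), the ketoacyl-ACP reductase that acts just after each condensation, stood at 110 ± 3.62 FPKM in OE and 102 ± 5.72 FPKM in WT (log2 0.12; limma adjusted p = 0.341). HAD-B (AT2G22230), a hydroxyacyl-ACP dehydratase that shares its step with HAD-A (AT5G10160), had 64.0 ± 2.93 FPKM in OE and 57.8 ± 4.43 FPKM in WT (log2 0.15; limma adjusted p = 0.298). The lowest adjusted p was that of AAD6 (AT1G43800), a relative of FAB2 named after its values were seen, with 1.15 to 2.82 FPKM in OE and 0.426 to 1.37 FPKM in WT (log2 0.66; limma adjusted p = 0.0862), at a level close to the minimum for testing.

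The genes that supply plastids with acetyl-CoA, biotin and lipoate also had no call: 11 of 13 were above 0, against 50.8% of all tested genes, and the median log2 difference was 0.09. Of the 13, 3 had an unadjusted limma p under 0.05, all higher in OE, against 9.89% of all tested genes. Pyruvate dehydrogenase, which makes acetyl-CoA in plastids, has several listed subunits. The most abundant, E1 alpha (AT1G01090), had 121 ± 3.40 FPKM in OE and 117 ± 3.36 FPKM in WT. Its log2 difference was 0.05 (limma adjusted p = 0.634). LTA2 and LPD1, both with an unadjusted limma p under 0.05, had log2 differences of 0.13 and 0.22 (limma adjusted p = 0.244 and 0.176). For PDH-E1B, PDH-E1B2, EMB3003 and LPD2 the log2 differences were -0.04 to 0.11. PKP-ALPHA (AT3G22960), a subunit of plastid pyruvate kinase, stood at 148 ± 6.79 FPKM in OE and 156 ± 10.2 FPKM in WT (log2 -0.08; limma adjusted p = 0.595). The holocarboxylase synthetase HCS1 (AT2G25710), which attaches biotin to the BCCP carriers, stood at 13.2 ± 0.479 FPKM in OE and 11.0 ± 1.77 FPKM in WT (log2 0.26; limma adjusted p = 0.220).

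Regulators of the pathway had no call and no unadjusted limma p under 0.05 among 9 tested of 13. Of all tested genes, 2.89% were called and 15.1% had such an unadjusted limma p. Log2 differences lay above 0 for 7 of the 9, against 50.8% of all tested genes, with a median of 0.06. WRI1 (AT3G54320), the activator named above, stood at 5.18, 4.85, 5.01, 4.76 and 5.31 FPKM in OE replicates 1 to 5 and at 4.74, 5.02, 3.73, 6.39 and 4.07 FPKM in WT replicates 1 to 5. The OE values lay inside the WT range (log2 0.07, 95% interval -0.18 to 0.32; limma adjusted p = 0.820). These are RNA levels and do not show the amount or activity of the WRI1 protein, which was not measured here. BADC1, BADC2 and BADC3, which resemble the BCCP carriers but take no biotin and hold back the carboxylase, summed to 126 ± 10.7 FPKM in OE and 121 ± 10.5 FPKM in WT (SD, n = 5), more than both BCCP genes together. CTI1 (AT1G42960), an envelope protein that binds the carboxyltransferase, was the most abundant regulator, with 198 ± 9.76 FPKM in OE and 189 ± 10.4 FPKM in WT (log2 0.06; limma adjusted p = 0.645). The seed regulators LEC1, LEC2 and FUS3 did not reach a mean of 1 FPKM.

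The genes most like the mean profile of the 10 over all 10 libraries, by Pearson correlation of log2(FPKM + 1), were AT5G43960, of an RNA-binding NTF2 family (r = 0.980), and PYRB (AT3G20330), aspartate transcarbamoylase of pyrimidine synthesis (r = 0.977). AT5G64710, annotated as a putative endonuclease or glycosyl hydrolase (r = 0.976), THY-2 (AT4G34570), a thymidylate synthase (r = 0.969), and OTP87 (AT1G74600), a pentatricopeptide repeat protein (r = 0.963), followed. None of these 5 passed limma (adjusted p = 0.102 to 0.319). AT5G64710 and OTP87 had means over all libraries of 1.22 and 1.55 FPKM, close to the minimum for testing. The correlations rank 17713 genes on the same 10 libraries and the same scaling, and are given as a description. Of the 10 genes themselves, KASIII (r = 0.851), MOD1 (r = 0.833) and MCAT (r = 0.832) followed the mean most closely, and BCCP1 (r = 0.109) and CAC3 (r = -0.115) least. Each of the 10 is itself part of that mean, which raises its r, so these values cannot be set beside those of the other genes.

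**Figure D4:**
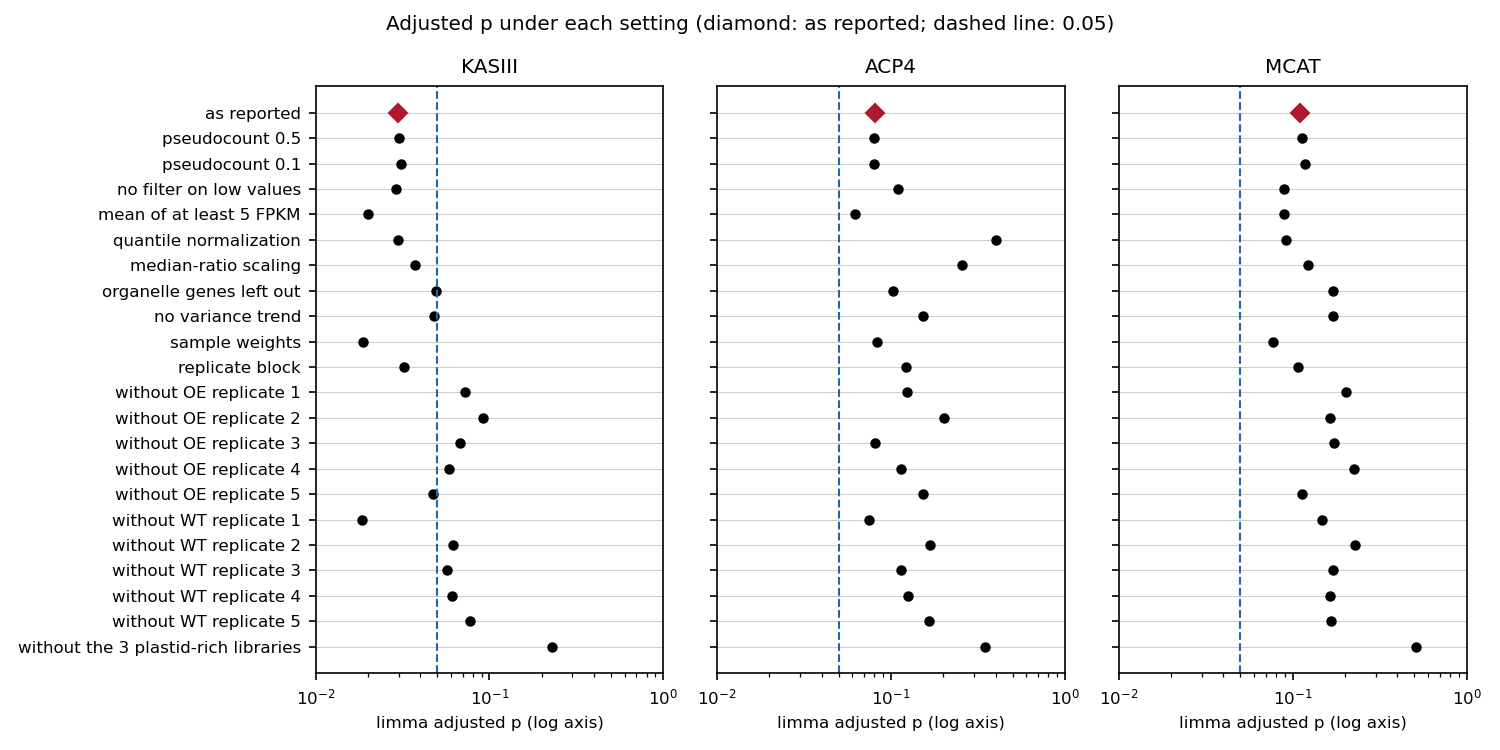
Limma adjusted p (horizontal log axis) of KASIII, ACP4 and MCAT under each processing setting and with libraries left out (rows); the diamond marks the reported value and the dashed line the threshold of 0.05. KASIII (0.0299 as reported) passes under all other processing settings. With 1 library left out it passes in only 2 of 10 cases. Without the 3 libraries richest in plastid RNA its limma adjusted p is 0.228. ACP4 and MCAT pass in no row.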

How the data were processed

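RNA-seq of shoots was deposited as FPKM, 1 column per library, computed by the authors. Names of software in the submitters' processing notes are kallisto 043.1, sleuth, R 3.5.1, FastQC and Trimmomatic 0.36, with no step assigned to any of them. The genome build was not given in the sources used here. Groups came from the sample titles. Locus codes were matched to the RefSeq annotation TAIR10.1 for names and transcript lengths; no coordinates were used. Fragments were estimated from the smallest steps of single-transcript genes of at least 800 nt, assuming fragments of 200 nt; this covers counting error only. Genes with a mean of at least 1 FPKM (17713) were fitted with limma 3.58.1 in R 4.3.3, with a variance trend and genotype as the term. The scale was log2(FPKM + 1), which understates changes of weak genes. The fit was also run on simulated data with noise drawn independently for each gene and library. That run cannot show how deviations shared by the genes of a library affect the calls. Isoform shares were compared by exact permutation over 252 assignments. The genes and lists were chosen with earlier results of these data known. All 10 genes were named, together with listed pathway genes past the threshold or else up to 4 per list by abundance or partnership, and the 5 genes most alike; others were named after their values were seen. Alternatives changed the pseudocount, filter, scaling, variance model, sample weights, replicate block and libraries. Figures used matplotlib 3.10.9.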

Additional observations from a re-analysis of the deposited data

How the results depend on the processing

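Under the 10 other processing settings, 1 of the 10 genes, KASIII, stayed past the threshold (limma adjusted p = 0.0188 to 0.0491). With 1 library left out the count was 0 to 1, and without the 3 libraries richest in plastid RNA, an omission chosen after seeing the data, it was 0. The count over all tested genes was 512; it was 781 with the replicate block, 204 to 534 with 1 library left out (lowest without OE replicates 2 and 4 and WT replicates 2 and 5, at 204, 271, 293 and 278) and 0 without those 3 libraries, where 1854 genes had an unadjusted limma p under 0.05. In the other pathway lists the count was 1 under quantile normalization, where FAD2 passed as lower in OE (log2 -0.21; limma adjusted p = 0.0351). PCNA1 lost its call in 8 of 10 cases with 1 library left out, without those 3 libraries, with no filter, without organelle genes and without the variance trend (highest limma adjusted p = 0.275), while its log2 difference was 0.34 to 0.44 in all settings. With 1 library left out, the log2 difference of BCCP1 ranged from -0.0795 to 0.0316, above 0 without OE replicate 2 or 5, and that of CAC2 from -0.0112 to 0.0701, below 0 without WT replicate 3. The difference in the FAB2 share ranged from -0.189 to 1.72 percentage points with 1 library left out, and that in the BCCP2 share from 0.635 to 1.72. Without WT replicate 3 the BCCP2 share differed by 0.635 points, and the log2 differences of BCCP2 and KASI were 0.05 and 0.04. All other directions of the 10 genes held. The causes were not tested.

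Libraries of the same number did not deviate together throughout: the correlation of their deviations was 0.199, -0.0385, -0.0864, 0.0740 and 0.178 for numbers 1 to 5. Of 10 libraries, 4 correlated best with their own number, and the numbers were not taken as pairs. Single listed genes, picked after their values were seen, did rise with the number throughout WT and up to replicate 4 in OE. The share of all tested genes that do so was not counted. WRI4 (AT1G79700), a listed regulator, stood at 31.5, 45.9, 50.6, 58.1 and 51.4 FPKM in OE replicates 1 to 5. In WT replicates 1 to 5 it stood at 26.5, 38.5, 53.0, 69.7 and 72.7 FPKM. ACX2 (AT5G65110), a peroxisomal oxidase, rose likewise, from 25.1 to 51.9 FPKM in WT replicates 1 to 5. In OE it rose from 25.4 to 40.9 FPKM in replicates 1 to 4 and stood at 38.6 FPKM in replicate 5. What the numbers stand for was not tested. With the replicate block the adjusted limma p of KASIII was 0.0323, and the isoform shares had an exact sign-flip adjusted p = 0.562 each, where the smallest possible raw p is 0.0625.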

Other observations

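Genes that break fatty acids down in peroxisomes lay mostly below 0, without any call. Their median log2 difference was -0.14, and 8 of 10 lay under 0, where 8723 of the 17713 tested genes did. An unadjusted limma p under 0.05 was found for 2, both lower in OE, as for 5.26% of all tested genes. KAT2 (AT2G33150), the thiolase that releases acetyl-CoA, stood at 136, 130, 136, 122 and 133 FPKM in OE replicates 1 to 5 and at 143, 160, 157, 138 and 164 FPKM in WT replicates 1 to 5. Every OE library was below every WT library, as in 1.42% of all tested genes, with a log2 difference of -0.21 (95% interval -0.35 to -0.08; limma adjusted p = 0.0972). ACX4, the next most abundant gene of the list and an oxidase of short chains, had 89.9 ± 4.94 FPKM in OE and 102 ± 15.2 FPKM in WT (log2 -0.17; limma adjusted p = 0.418).

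Genes for export, desaturation and membrane lipid assembly had no call among 17, where 2.89% of all tested genes were called. Their median log2 difference was 0.03. Unadjusted limma p was under 0.05 for 1 gene higher and 1 gene lower in OE, against 9.89% and 5.26% of all tested genes. FAD6 (AT4G30950), the oleate desaturase of plastids, stood at 354 ± 27.0 FPKM in OE and 339 ± 8.45 FPKM in WT (log2 0.06; limma adjusted p = 0.661). FAD2 (AT3G12120), its counterpart in the endoplasmic reticulum, stood at 338 ± 24.7 FPKM in OE and 354 ± 11.1 FPKM in WT (log2 -0.07; limma adjusted p = 0.633). The cytosolic carboxylase ACC1 had 14.2 FPKM in OE and 15.1 FPKM in WT (log2 -0.09; limma adjusted p = 0.639), and the 4 elongation genes of the endoplasmic reticulum had a median log2 difference of 0.00.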
